A study of Drosophila melanogaster with 3 samples.

Results

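The strong Mod(mdg4)2.2 sites without L(3)mbt are 663 ChIP-seq peaks of Kc167 cells, out of 6144 peaks called with the BTB antibody on the 5 long chromosome arms (2L, 2R, 3L, 3R and X) and 7621 on all sequences. They were chosen from the peak lists themselves. Each is a BTB peak with a score of 3100 or more that shares at least 1 bp with a peak of the 2.2 antibody and no bp with a peak of L(3)mbt. The score is a value that the peak caller gave, as the authors deposited it, and it serves here as a rank within a list. Kc167 is a line derived from Drosophila melanogaster embryos, here kept in serum-free medium and fixed with formaldehyde, and the 3 libraries (1 per antibody) carry no further treatment or genotype. One antibody recognises the 2.2 isoform of Mod(mdg4), one the BTB domain of all Mod(mdg4) isoforms, and one L(3)mbt. With 1 library per antibody no difference below has a replicate check, no p-value is given, and the 95% intervals (Wilson for shares, order statistics for medians) cover counting error only. The files hold peaks and not reads, so the depth is unknown, and a site without an L(3)mbt peak is one where none was called in this library.

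Chromatin insulators are DNA elements that limit the reach of enhancers and of silencing, and their proteins are also known for a part in chromosome folding. In Drosophila the best studied one lies in the gypsy retrotransposon, where the zinc finger protein Su(Hw) binds DNA and recruits Mod(mdg4)2.2 and CP190. Mod(mdg4) is made as many isoforms that share the BTB domain, which mediates contacts between proteins, and differ in the C-terminal part. That C-terminal part of 2.2 contacts Su(Hw). L(3)mbt is a protein with MBT repeats, which bind methylated lysines of histones, and its loss in larvae leads to brain tumours and to germline genes being switched on in the brain. Insulator activity, Su(Hw) and CP190 were not measured in these libraries, so the sites are described here by which peaks they hold. They are given by position only, counting from 1, because no gene annotation was at hand for the genome release to which the sequence names belong.

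The choice of sites used the BTB score and the overlaps. In all, 30.7% of the BTB peaks on the long arms reached a score of 3100, and 28.6% met 2.2 without L(3)mbt. Both conditions together held for 10.8% (10.0 to 11.6%). Of the 663 sites, 650 had a BTB score of exactly 3100 and 13 had a higher one, so the BTB score hardly separates them. The 3 highest values were at 2R, 14653343 to 14654028, with 3233.06, at 3R, 7017434 to 7018310, with 3222.65, and at 3R, 13589919 to 13590417, with 3220.27. It is not stated whether a value above 3100 ranks above exactly 3100, so these need not be the strongest sites. Just outside the threshold lay BTB peaks with 2.2 and no L(3)mbt at X, 9784676 to 9785520 (3092.7), at 2L, 4660790 to 4661405 (3089.41), and at 2R, 12807293 to 12807917 (3083.42). Just inside it the scores were tied at 3100, the first in genome order being 2L, 65585 to 66193.

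The 2.2 score was not part of the choice, and at most of these sites it too reached 3100. The 2.2 peak scored 3100 or more at 578 of the 663 sites (87.2%, 84.4 to 89.5%), against 36.6% of all BTB peaks on the long arms that met 2.2. The latter share is 802 of 2194 and includes the 578 sites. Among the 1095 weaker BTB peaks with 2.2 and no L(3)mbt, the share was 10.4% (8.74 to 12.4%). Among the 220 strong BTB peaks that met both 2.2 and L(3)mbt, it was 41.4% (35.1 to 48.0%). These 3 intervals do not overlap. The median 2.2 score was 3100 at the chosen sites, 882 at the strong peaks with both proteins and 800.3 at the weaker peaks without L(3)mbt. The BTB antibody recognises the 2.2 isoform as well, so the lists of both antibodies record in part the same protein. The part of depth and of peak width in this relation was not tested.

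**Figure D1:**
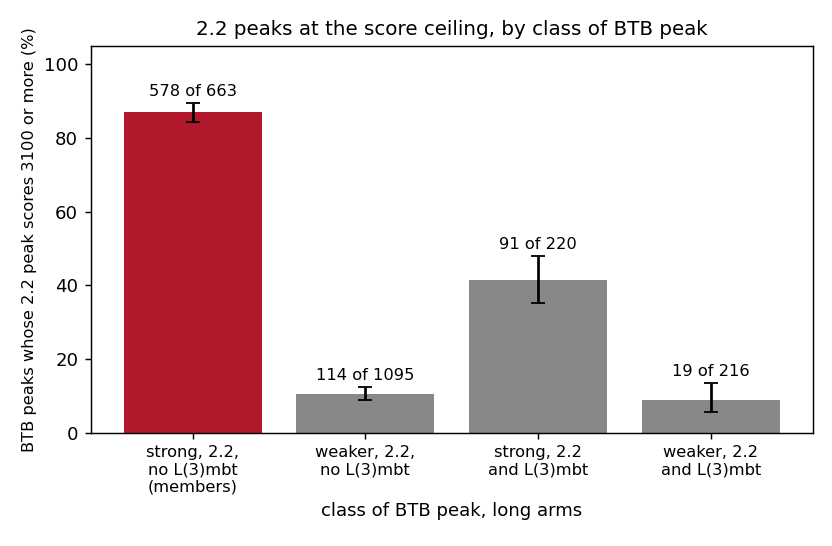
Share of BTB peaks on the long arms whose 2.2 peak scored 3100 or more (y axis, percent), by class of BTB peak (x axis), with 95% Wilson intervals as error bars and counts above the bars. The chosen sites stand at 87.2%, and the other 3 classes at 41.4% or below.

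Seen from the 2.2 list, 643 different 2.2 peaks lay at these sites, which is 29.3% of the 2195 on the long arms. Of the 715 that scored 3100 or more, 559 held one of the sites (78.2%, 75.01 to 81.05%), and of the 1480 that scored less, 84 did (5.68%, 4.61 to 6.97%). A strong 2.2 peak held a weaker BTB peak without L(3)mbt in 99 cases and a strong BTB peak with L(3)mbt in 89, where 1 wide 2.2 peak can count in more than 1 class.

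The remaining 85 sites fell into separate ranges of 2.2 score. Of these, 36 scored under 500, 3 scored 500 to 1000, 12 scored 1000 to 2000 and 34 scored 2000 to 3100. The 36 low ones were spread over the arms, with 10 on 2R, 9 on 3R, 6 each on 2L and X, and 5 on 3L. Their BTB peaks were wider, with a median of 974 bp (quartiles 755 and 1258 bp), compared with 752.5 bp (quartiles 663 and 949.5 bp) at the 578 sites with a strong 2.2 peak, and their 2.2 peaks were narrower, with 1075.5 bp against 1435 bp. At 11 of the 36 the 2.2 peak was no wider than the BTB peak, which was so at 2 of the 578. The lowest 2.2 scores were at 2R, 3239103 to 3240547, where a BTB peak of 1445 bp with a score of 3100 met a 2.2 peak of 1075 bp with a score of 105.4, at X, 2536409 to 2537679 (105.58), and at 3L, 16923434 to 16924201 (116.83). The 49 sites scoring from 500 up to 3100 had narrow BTB peaks, with a median of 660 bp.

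The site with the highest 2.2 score was taken on each arm, with ties given to the higher BTB score. Since a value above 3100 need not rank above exactly 3100, these sites are examples and not the strongest of their arms. On 2L it was 313238 to 313882, a BTB peak of 645 bp with a score of 3100 inside a 2.2 peak of 1230 bp with a score of 3205.22. On 2R it was 18931620 to 18932784 (2.2 score 3143.04), a site with staggered edges. On 3L it was 23892307 to 23893039 (3186.84) and on 3R 5802775 to 5803377 (3134.12). On X no 2.2 score at these sites exceeded 3100, and the tie went to 8891664 to 8892278, with a BTB score of 3181.77. In each of the 5 the centres of both peaks lay at most 149 bp apart. The share of sites with a 2.2 score of 3100 or more ran from 81.7% on 2L (72.7 to 88.3%) to 90.7% on 3L (84.8 to 94.5%), with overlapping intervals.

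The centres of both peaks lay close together. The choice asked for a shared bp with a 2.2 peak, which limits how far apart the centres can lie, so these values are descriptions. The centre of the 2.2 peak lay a median of 51.5 bp from that of the BTB peak (46.5 to 59.5 bp; interquartile range 20.5 to 163 bp), within 50 bp at 49.2% of the sites, within 200 bp at 78.6% and within 500 bp at 92.5%. It lay at the higher coordinate at 317 sites and at the lower at 345, so the offset had no common direction along the arm. The BTB peak was wholly inside the 2.2 peak at 623 sites (94.0%, 91.9 to 95.5%), the reverse held at 4, and the edges were staggered at 36. The median width was 752 bp for BTB (734 to 776 bp) and 1385 bp for 2.2, and the 2.2 peak was a median of 1.81 times as wide. Across the 663 sites the widths of both peaks had a Spearman correlation of 0.45, given as a description, since both come from the same 2 libraries and the same caller. The weaker BTB peaks with 2.2 and no L(3)mbt shared this form, with centres a median of 33 bp apart and 96.4% inside the 2.2 peak (95.2 to 97.4%). At the strong BTB peaks with both proteins the centres were 95.3 bp apart in the median and the BTB peak was inside the 2.2 peak at 64.5%. The BTB peaks there were wider (1117 bp), and 41.4% had a 2.2 score of 3100 or more, against 87.2% of the sites. Among the sites, the BTB peak was inside at 47.2% with a 2.2 score under 500, 81.6% from 500 to 3100 and 97.9% at 3100 or more. The part of width and of 2.2 score in this difference was not tested.

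**Figure D2:**
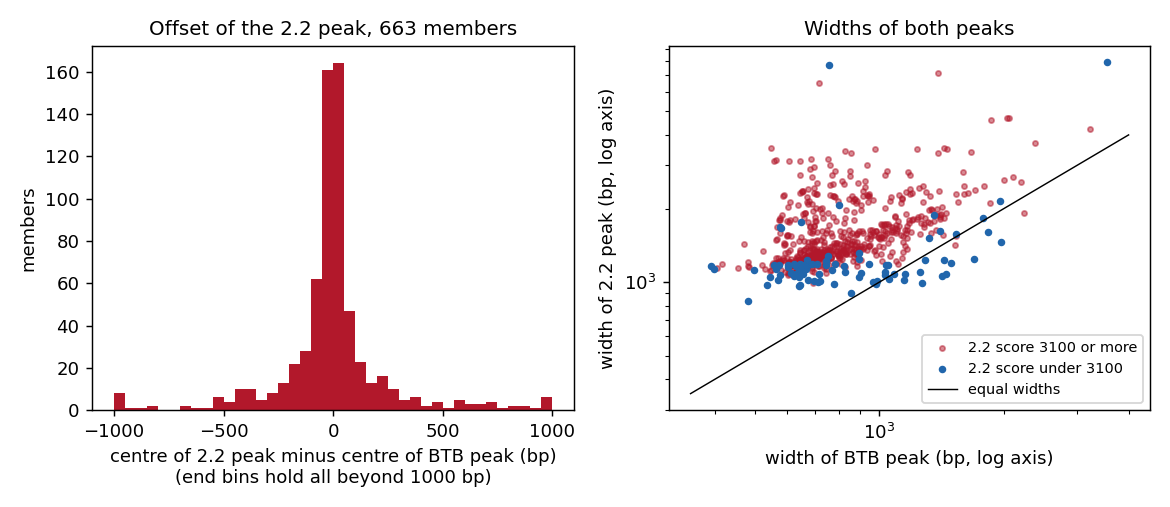
Left, number of sites (y axis) by the distance from the centre of the BTB peak to that of the 2.2 peak in bp (x axis). Right, width of the 2.2 peak against width of the BTB peak at each site in bp (log axes), with the line of equal widths and with sites split at a 2.2 score of 3100. Offsets gather around 0 with 78.6% within 200 bp, and 647 of the 663 points lie above the line.

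Offsets over 500 bp were found at 50 sites. The largest were at 3R, 6029033 to 6029786 (3187 bp), at 2L, 20890984 to 20891696 (2570.5 bp), and at X, 14056861 to 14058249 (2510 bp). In each of them a BTB peak of 754, 713 or 1389 bp lay near an end of a 2.2 peak of 7696, 6494 or 7147 bp, and no other BTB peak was called in that 2.2 peak. At 78 sites the 2.2 peak held another BTB peak, and at 39 of these another of the chosen sites. The other 585 sites (88.2%) were the sole BTB peak of their 2.2 peak.

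Widths of the BTB peaks ran from 393 to 3553 bp. Strong BTB peaks with neither 2.2 nor L(3)mbt had a median of 837.5 bp (804 to 899 bp), and weaker ones with 2.2 and no L(3)mbt 574 bp (568 to 580 bp). A wide peak meets another list more easily, so widths are not independent of the way the sites were chosen. The widest was at 3L, 4900672 to 4904224, inside a 2.2 peak of 7911 bp with a score of 1966.82 that held 3 BTB peaks. It was followed by 3R, 26306436 to 26309656 (3221 bp), and 2R, 12495849 to 12498228 (2380 bp). The narrowest were at X, 18257501 to 18257893 (393 bp), 2L, 7735295 to 7735692 (398 bp), and 3L, 15007438 to 15007842 (405 bp), each with a 2.2 peak of 1134 to 1164 bp. The share of sites with a 2.2 score of 3100 or more was 82.0% in the narrowest 25% of the sites (393 to 657 bp; 75.5 to 87.1%), 92.1% and 90.9% in the middle ranges, and 83.7% in the widest 25% (969 to 3553 bp; 77.4 to 88.6%).

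The sites were found on all 5 arms, at 5.59 per Mb. The arm 3R held 153, 2R 148, 3L 140, X 129 and 2L 93. They made up 12.2% of the BTB peaks on 2R (10.5 to 14.2%), 11.2% on 3L, 10.8% on X, 10.4% on 3R and 9.21% on 2L (7.58 to 11.1%). The intervals of neighbouring arms in this order overlap, and so do those of 2R and 2L. X held 19.5% of the sites (16.6 to 22.6%) and 19.4% of all BTB peaks. Per Mb, 2R was the densest with 7.01 and 2L the sparsest with 4.08. The 25% of each arm next to the centromere held 22.3% of the sites (19.3 to 25.6%) and 21.9% of all BTB peaks, and the 25% at the other end 28.8% (25.5 to 32.4%) and 25.3%.

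**Figure D3:**
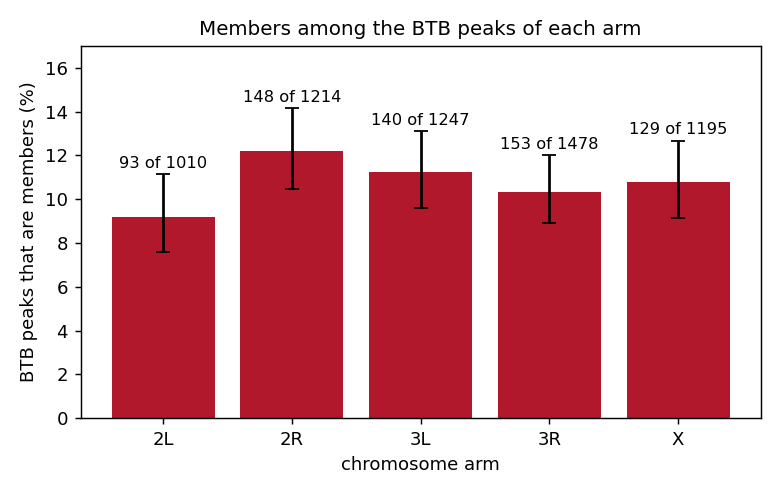
Share of the BTB peaks of each chromosome arm that are strong 2.2 sites without L(3)mbt (y axis, percent; x axis, arm), with 95% Wilson intervals as error bars and counts above the bars. The shares run from 9.21% on 2L to 12.2% on 2R.

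In windows of 1 Mb the number of sites had a median of 5 and a maximum of 19, at 2R, 3000001 to 4000000, where 71 BTB peaks were called. It was followed by X, 18000001 to 19000000, with 14. Of 121 windows, 2 held none, both on 2L, at 18000001 to 19000000 and at the end of the arm from 22000001. The first of these had 41 BTB peaks and 26 L(3)mbt peaks. Across the windows, the number of sites had a Spearman correlation of 0.47 with that of all BTB peaks and of 0.09 with that of L(3)mbt peaks. The latter was 0.22 for strong BTB peaks with neither 2.2 nor L(3)mbt, 0.14 for weaker ones with 2.2 and no L(3)mbt, and 0.39 for strong ones with both. The windows share their libraries, the last of them on each arm is shorter, and sites that meet L(3)mbt were excluded by the choice, so these correlations are descriptions.

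More often than BTB peaks at large, the sites had a neighbour that also held 2.2 without L(3)mbt. The nearest other BTB peak lay a median of 4860 bp away, edge to edge (4248 to 5482 bp). It held 2.2 and no L(3)mbt for 361 of the 663 sites (54.4%, 50.6 to 58.2%), against 28.9% of all BTB peaks on the long arms, a class that makes up 28.6% of the BTB peaks. For strong BTB peaks with neither 2.2 nor L(3)mbt the share was 18.6% (15.5 to 22.2%), and for weaker ones with 2.2 and no L(3)mbt 57.4% (54.5 to 60.3%). The interval of the last overlaps that of the sites. The nearest BTB peak was itself strong for 38.6% of the sites (35.0 to 42.4%), for 35.7% of the strong BTB peaks with neither protein (31.6 to 39.9%, an overlapping interval) and for 30.7% of all BTB peaks. It held L(3)mbt, with or without 2.2, for 19.5% of the sites (16.6 to 22.6%), for 16.8% of the weaker BTB peaks with 2.2 and no L(3)mbt (14.7 to 19.1%) and for 36.6% of all BTB peaks.

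Part of this lies within single wide 2.2 peaks. For the 585 sites whose nearest BTB peak was not in the same 2.2 peak, the share with 2.2 and no L(3)mbt was 49.2% (45.2 to 53.3%), against 26.6% of all BTB peaks counted that way. For weaker BTB peaks with 2.2 and no L(3)mbt it was 51.9% (48.7 to 55.1%), an overlapping interval. Left out in this way were 75 of the 121 sites with a BTB peak under 1 kb away and 3 sites at 1 to 5 kb, whose neighbour lay in their own 2.2 peak and so held 2.2 by construction. By distance, a setting chosen after seeing the data, the share among the 585 was 39.1% under 1 kb (26.4 to 53.5%; 46 sites), 55.1% at 1 to 5 kb (48.4 to 61.6%), 49.0% at 5 to 20 kb (43.0 to 55.1%) and 37.5% beyond 20 kb (26.7 to 49.7%; 64 sites). For all BTB peaks counted likewise it was 9.91, 31.0, 30.8 and 32.0%. Beyond 20 kb the interval of the sites overlaps that of all BTB peaks, and in the 3 nearer ranges it lies above. Sites that are each other's nearest BTB peak both count, so these intervals may be too narrow. All BTB peaks include the sites and many peaks without 2.2. With neighbours in the same 2.2 peak included again, on each arm the share among the sites was 51.9 to 59.1%, and the share among all BTB peaks 26.9 to 31.2%. It was 36.1% for the 36 sites with a 2.2 score under 500 (22.5 to 52.4%) and 55.5% for those at 3100 or more (51.5 to 59.5%), with overlapping intervals.

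**Figure D4:**
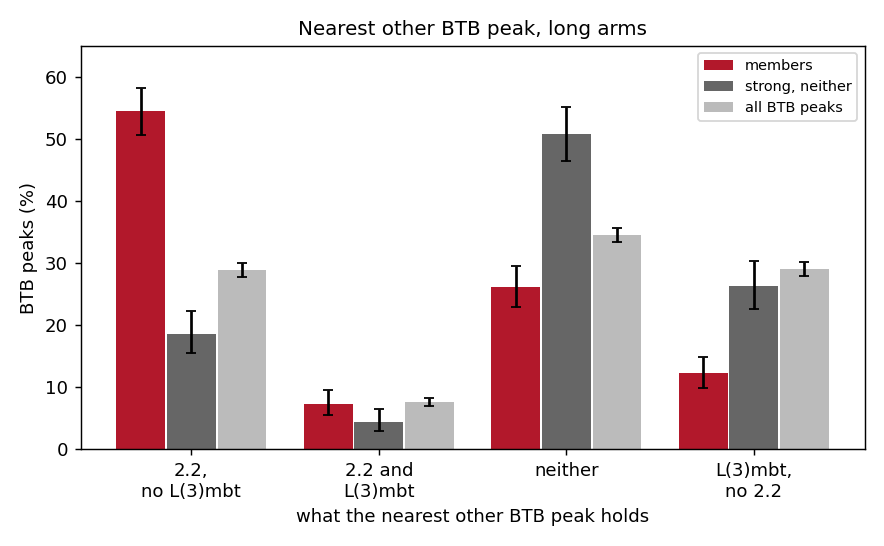
What the nearest other BTB peak held (x axis) for the strong 2.2 sites without L(3)mbt, for strong BTB peaks with neither protein and for all BTB peaks of the long arms (y axis, percent of each set, with 95% Wilson intervals as error bars). A neighbour with 2.2 and no L(3)mbt was found for 54.4% of the sites, 18.6% of the strong peaks with neither protein and 28.9% of all BTB peaks. Weaker BTB peaks with 2.2 and no L(3)mbt, at 57.4%, are not drawn.

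From site to site the median distance was 32244 bp (25204 to 41321 bp; interquartile range 7881 to 106600 bp). Another of the sites lay within 10 kb for 190 of them (28.7%), and none within 100 kb for 173. Joined at 10 kb, they formed 89 groups of more than 1 (78 pairs, 10 groups of 3 and 1 of 4). An L(3)mbt peak lay within the span of 3 of these 89 groups. The sites themselves meet no L(3)mbt peak by choice, so this count is in part fixed in advance. Other classes of BTB peak were not grouped in this way. Their median distance to the nearest peak of the same class was 19185 bp for the 1095 weaker peaks with 2.2 and no L(3)mbt. It was 70421 bp for the 510 strong peaks with neither protein and 173844 bp for the 220 strong peaks with both. Such distances depend on the number of peaks in a class, and that part was not tested. The largest group was at 2R, 20178387 to 20188562. Its 4 sites had 3 different 2.2 peaks, all with a score of 3100, and the nearest L(3)mbt peak lay 4302 bp beyond it. The most isolated site, at 2R, 942936 to 943762, had its next fellow 793491 bp away. Sites with another within 10 kb had a 2.2 score of 3100 or more in 92.6% of cases (88.0 to 95.6%), and sites with none within 100 kb in 84.4% (78.2 to 89.0%), with overlapping intervals. At 39 sites the 2.2 peak held another of the sites, so some 2.2 scores count more than once among the close sites.

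Read along the arms, the 663 sites made 522 unbroken runs in the order of BTB peaks, meaning sites with no other BTB peak between them. Of these, 411 were single sites, 87 held 2, 19 held 3, 4 held 4 and 1 held 5. The run of 5, at 2R, 7115196 to 7154276, filled a stretch of 59617 bp between neighbouring L(3)mbt peaks with no further BTB peak wholly inside it. The L(3)mbt peaks cut the arms into 2895 intervals, of which 1262 held a BTB peak wholly inside. A BTB peak that meets L(3)mbt cannot lie wholly inside an interval, so those classes are not counted. At least 1 of the sites lay in 414 intervals, and 2 or more lay in 148. The intervals with a site were longer, with a median of 86913 bp against 45823.5 bp for those with a BTB peak wholly inside. The part of interval length in these counts was not tested. The most in 1 interval was 6, for example within 210783 bp at 2L, 14022856 to 14233638, which held 14 BTB peaks wholly inside.

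L(3)mbt was absent from the sites by choice, but it was often not far. The nearest L(3)mbt peak lay a median of 22316 bp away, edge to edge (19429 to 24496 bp; interquartile range 8708 to 44854 bp). It was within 1 kb at 21 sites, within 5 kb at 107 (16.1%), within 10 kb at 181 (27.3%), and farther than 100 kb at 42 (6.33%). The median was 15376 bp for strong BTB peaks with neither protein (13252 to 18223 bp) and 25000 bp for weaker ones with 2.2 and no L(3)mbt (22231 to 28108 bp). The interval of the sites overlaps that of the weaker 2.2 peaks and not that of the strong peaks with neither protein.

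**Figure D5:**
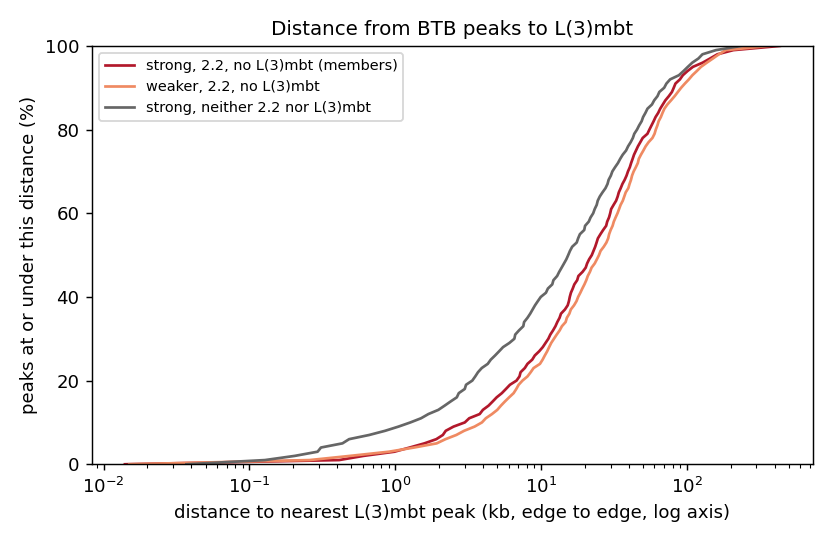
Cumulative share of BTB peaks (y axis, percent) by distance to the nearest L(3)mbt peak in kb, edge to edge (x axis, log axis), for the strong 2.2 sites without L(3)mbt, weaker 2.2 peaks without L(3)mbt, and strong BTB peaks with neither protein. The curve of the sites, with its median at 22316 bp, lies to the right of that of the peaks with neither protein, at 15376 bp, over most of the range.

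The sites closest to L(3)mbt show where the choice by 1 bp was tight. At X, 12650994 to 12652591, an L(3)mbt peak lay 14 bp away, at 2L, 20282845 to 20283611, 40 bp away, and at 2R, 13280587 to 13282826, 47 bp away, and all 3 had a 2.2 score of 3100. At 5 of the 663 sites the 2.2 peak itself met L(3)mbt although the BTB peak did not. The L(3)mbt peaks within 1 kb of a site had scores from 100.39 to 1684.24 with a median of 435, against 313 for the whole L(3)mbt list of the 5 arms. The sites farthest from L(3)mbt lay together near the centromere of 3L. They were 23800399 to 23801095, at 434447 bp, 23892307 to 23893039, at 342503 bp, and 23915785 to 23916527, at 319015 bp, and each had a 2.2 score of at least 3100. The 1 Mb window that holds them, from 23000001, had 8 BTB peaks and 3 L(3)mbt peaks, against a median of 51 BTB peaks per window. Near and far sites had like shares of strong 2.2 peaks. The 2.2 score was 3100 or more at 88.8% of the sites within 5 kb of L(3)mbt (81.4 to 93.5%) and at 89.7% of those over 50 kb away (83.6 to 93.6%), with overlapping intervals.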

How the data were processed

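The authors deposited 1 list of peaks per library, with sequence, start, end, peak name and score. The submitters' processing notes name Bowtie 0.12.5, an aligner, and the peak names begin with MACS, a peak caller, per the files. Caller settings and the genome build are not given in the sources used. Control reads, not analysed here, were taken from earlier work on this cell line, per the design text. The names 2LHet and Uextra belong to release 5 of the fly assembly.

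From these lists, peaks on the long arms were compared by shared bp. Where several 2.2 peaks could be paired, the longest overlap was taken. Distances run edge to edge, and arm lengths end at the last peak of any list. Named sites are the extremes of each measure by a rule in writing (ties by genome order, except the highest 2.2 score of an arm, where the BTB score came first). Sites described beyond it, the 1 Mb windows, the runs and the splits by score were chosen after the values were seen. The members, lists and rule were chosen with earlier results of these data known. The code was tested on simulated data. Motifs and genes were not analysed here. Python 3.11.15, numpy 2.4.6, pandas 2.3.3, scipy 1.17.1 and matplotlib 3.10.9 were used.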

Additional observations from a re-analysis of the deposited data

Results flagged for a closer look

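Outside the long arms, which the comparisons above do not use, 19 of 1477 BTB peaks met the same rule (1.29%, 0.825 to 2.00%). On Uextra 8 of 1212 did (0.660%, 0.335 to 1.30%) and on U 3 of 155 (1.94%, 0.660 to 5.54%). On chromosome 4 it was 3 of 35 (8.57%, 2.96 to 22.4%), on 2RHet 2 of 25 (2.22 to 24.97%), on 3LHet 2 of 27 (7.41%, 2.06 to 23.4%) and on 3RHet 1 of 14 (7.14%, 1.27 to 31.5%), intervals that include the 10.8% of the long arms. Of the 19, 13 had a 2.2 score of 3100 or more. U and Uextra are unplaced sequence, and no share was tested against that of the long arms.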

How the results depend on the processing

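Of 55 values under 8 alternatives, 44 stayed within the interval of the reported value, or within 1.5 times of a count, and 11 moved. Requiring centres within 200 bp kept 521 of the 663 sites among 551, with a median offset of 38 bp (fixed by that limit), a median distance between sites of 46640 bp and 42.5% of nearest BTB peaks with 2.2 and no L(3)mbt, against 22.8% of all BTB peaks. Peaks set to 400 bp kept 593 among 622, with 44920 bp and 44.2%, against 25.8%. In both settings, and at an overlap of 50%, the same limit was applied to L(3)mbt. It is stricter for 2.2 but loosens the exclusion, so sites added there can share bp with an L(3)mbt peak. A BTB score of 1000 or more gave 1052 sites, of which 62.7% had a 2.2 score of 3100 or more, with a median width of 703 bp, an offset of 45 bp and a distance of 20740 bp. Counting nearest BTB peaks in another 2.2 peak alone, chosen after seeing the data, gave 49.2%. No value moved with an overlap of 50%, an L(3)mbt margin of 1 kb, a 2.2 score of 3100 or more, or sites joined at 500 bp. Width at 400 bp and the 2.2 share at a 2.2 score of 3100 or more are fixed by construction and were not computed. No paired analysis was possible because each antibody has 1 library. Depth is unknown and ties at 3100 hide any order among the sites.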
